A study of Mus musculus with 8 samples.

Results

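The genes of the apoptosis machinery were followed in 8 bulk RNA-seq libraries of sorted mouse skin stem cells. They were 42 genes taken by symbol, and 41 of them had a row in at least 1 of the 2 tables, which together held 24755 genes. The table of hair follicle stem cells (HFSCs) held 40 of them among 23861 genes, and the table of epidermal stem cells (EpdSCs) held 40 among 16231. Bik had a row in neither table, Bcl2l14 was missing from the HFSC table and Hrk from the EpdSC table, so that 39 could be read in both cell types. After edgeR's filter on low counts, 37 members were tested in HFSCs, where Bbc3, Casp4 and Endog were too low, and all 40 listed members were tested in EpdSCs, for which no filter was applied.

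Both cell types came from dorsal skin in telogen, the resting phase of the hair cycle. HFSCs had been sorted as CD34+CD49f+Sca-1- cells and EpdSCs as CD34-CD49f+Sca-1+ cells. Each cell type had 2 WT libraries and 2 libraries labelled Msx2-KO, from mice lacking the homeobox factor Msx2 in every cell of the body through a homozygous allele with a neo cassette inserted upstream of exon 2. The HFSC WT mice were 2 months old and the HFSC Msx2-KO mice 6 months old, so age and genotype cannot be told apart in HFSCs. All EpdSC mice were 6 months old. The names of WT and Msx2-KO libraries differed in prefix in HFSCs and in number range in EpdSCs. What these names stand for is not given, and any difference behind them cannot be told apart from genotype. WT mice were C57BL/6J. The comparison asks whether genes of programmed cell death differ in stem cells of Msx2-KO skin.

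Apoptosis can start from mitochondria or from receptors at the cell surface. In the mitochondrial route, BH3-only proteins sense stress and either engage anti-apoptotic Bcl2 proteins or activate the pore formers Bax and Bak1, after which cytochrome c leaves the mitochondria and, with Apaf1, activates caspase 9. In the receptor route, Fas and related death receptors recruit Fadd and caspase 8. Inhibitor of apoptosis proteins (IAPs) hold caspases in check, and caspases in turn free a nuclease that cuts DNA between nucleosomes. In skin these genes are known to act in the regression of the hair follicle and in the response to DNA damage. Transcript levels give the supply of these proteins and not their activation, which is largely set by cleavage and by binding between proteins.

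The libraries differed in ways that touch every value below. HFSC libraries summed to 3132974 to 11016659 estimated counts, and the 2 mitochondrial rRNA genes took 8.94% and 36.3% of the counts in WT but 49.4% and 53.2% in the libraries labelled Msx2-KO. In HFSCs, 22489 and 19672 genes had a count in WT against 11414 and 14268 in Msx2-KO. EpdSC libraries summed to 14216483 to 24694442 normalized units, with 23.5% and 16.4% mitochondrial rRNA in WT against 0.073% and 6.18% in Msx2-KO. Msx2 itself did not check the labels, since it had 53 and 7 counts in HFSC WT libraries against 40 and 18 in those labelled Msx2-KO, and 58.5 and 85.4 units against 150.3 and 22.2 in EpdSCs. By RNAscope the study found no Msx2 expression in Msx2-KO mice, whereas Msx2 reads were counted in these libraries. Counts over the whole gene cannot by themselves check an allele made by insertion, and the cause of this difference was not tested. Sums over sebaceous gland markers were 172 and 187 normalized counts in HFSC WT and 7539 and 5460 in HFSC Msx2-KO, where 6 of 6 tested markers had an unadjusted p under 0.05 and Plin5 was at 0 in both. Suprabasal markers summed to 1046 and 1216 against 4581 and 17476 in HFSCs, and in EpdSCs to 273176 and 194672 units against 43253 and 73316. Of 6 tested in HFSCs, 5 had a positive log2 fold change. The other, Sbsn, made up most of the HFSC WT sums and was negative (-0.37). Krt1 and Krt10 made up most of the HFSC Msx2-KO sums, and Lor and Calm5 were at 0 in HFSC Msx2-KO replicate 1. Immune markers in EpdSCs summed to 839 and 106 units in WT and to 40.6 and 15.6 in Msx2-KO, so that they were high in 1 WT library, and Ptprc was at 0 in the other 3 EpdSC libraries. Markers of the bulge, from which HFSCs are sorted, were lower in both HFSC Msx2-KO libraries for 8 of 9, beside 33.5% of all genes, and summed to 57783 and 54243 normalized counts in WT against 27905 and 29910 in Msx2-KO. The surface marker Cd34 had 2995 and 2662 against 1081 and 876.7. In EpdSCs bulge markers summed to 89957 and 108420 units against 310928 and 221159. Most of this was Krt15, at 79951 and 96241 units against 230109 and 177798, which also stands in the list of basal epidermis. Of 8 bulge markers tested in EpdSCs, 6 had a positive log2 fold change and 2, Lhx2 and Sox9, a negative one. The part of these markers, of depth and of mitochondrial rRNA in the values of the apoptosis genes was not tested, and in such bulk samples fewer cells of a type and less RNA per cell cannot be told apart.

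No apoptosis gene passed the test in either cell type. HFSC counts were tested with edgeR's quasi-likelihood test and EpdSC values with limma on log2(value + 1), and calls needed more than a 2-fold change and an adjusted p (Benjamini-Hochberg) under 0.05. In HFSCs 0 of 37 members were called, beside 0% of the 14422 genes tested, and 4 members had an unadjusted p under 0.05, which is 10.8% of members beside 18.1% of all genes. Of these, 1 was higher in Msx2-KO (2.7% of members, beside 5.3% of genes) and 3 lower (8.11%, beside 12.8%). In EpdSCs 0 of 40 members were called, beside 9.35% of 16231 genes, of which 1.57% of genes were higher and 7.78% lower in Msx2-KO. There, 4 members had an unadjusted p under 0.05, or 10% beside 35.3% of all genes, with 1 higher (2.5%, beside 12.2%) and 3 lower (7.5%, beside 23.1%). For any single gene, 2 libraries against 2 leave 0.333 as the smallest p that exact permutation can give.

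The direction of the members was mixed. In HFSCs 15 of 37 members had a positive log2 fold change (40.5%, beside 45.4% of genes) and 22 a negative one (59.5%, beside 54.6%), with a median of -0.21 beside -0.14 over all genes tested. Both Msx2-KO libraries lay above both WT libraries for 6 members (16.2%, beside 17.5% of all genes) and below them for 11 (29.7%, beside 33.5%). In EpdSCs 20 members were positive (50%, beside 40.3%) and 20 negative (50%, beside 59.7%), with a median of -0.03 beside -0.64 over all genes. Both Msx2-KO libraries lay above both WT libraries for 12 members (30%, beside 27.8%) and below them for 13 (32.5%, beside 44.5%). The groups thus did not overlap for 17 of 37 members in HFSCs, where 51.1% of all genes did not, and for 25 of 40 in EpdSCs, where 72.3% did not. These shares were near or under the background and are not a result about the members. Scaling by library totals moved the median of all HFSC genes from -0.14 to -1.002 and the split of members from 15 higher and 22 lower to 8 and 29.

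**Figure D1:**
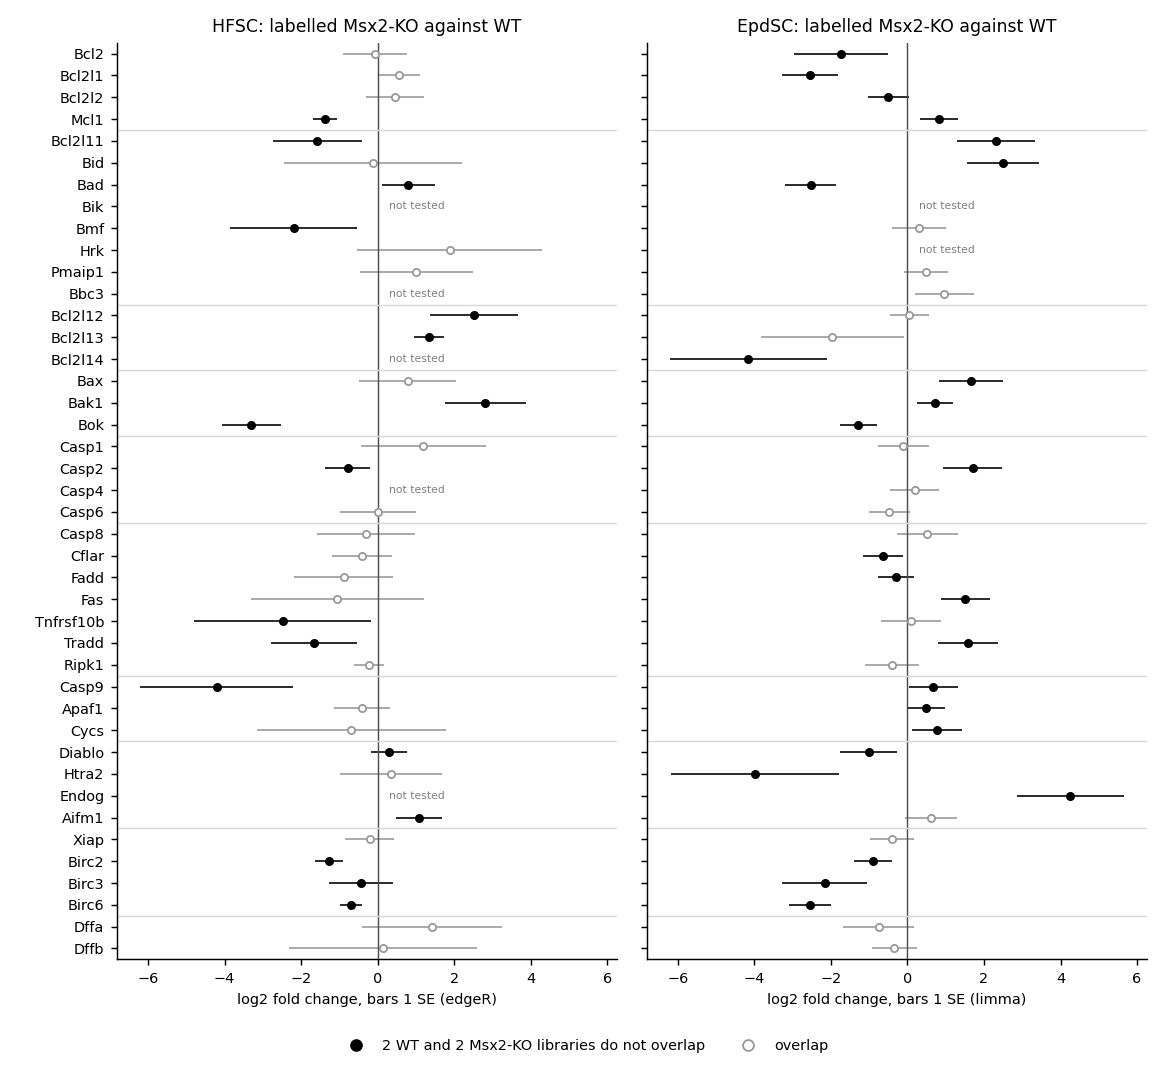
Log2 fold change of each member between libraries labelled Msx2-KO and WT, with bars of 1 SE, in HFSCs (edgeR) and EpdSCs (limma), ordered by role. Filled points mark the 17 HFSC and 25 EpdSC members for which the 2 libraries of each group do not overlap, and such points lie on both sides of 0 in both panels.

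The libraries labelled Msx2-KO disagreed with each other far more than the WT libraries did. Among the 32 HFSC members whose mean reached 20 normalized counts, the median ratio between replicates was 1.21-fold in WT and 2.73-fold in Msx2-KO, and 12 members differed more than 4-fold between the Msx2-KO libraries. Over all HFSC genes of that level the medians were 1.24-fold and 2.30-fold. In EpdSCs the 40 members had medians of 1.19-fold in WT and 2.48-fold in Msx2-KO, where 9 differed more than 4-fold, beside 1.17-fold and 2.43-fold over all genes. The spread of the members was close to that of all genes.

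Several members were read as 0 in at least 1 Msx2-KO library. In HFSC Msx2-KO replicate 1, Bid, Hrk, Casp4, Cycs, Fas, Tnfrsf10b and Dffb were at 0. Counting only genes with at least 5 counts in both WT libraries, 5 of 35 members (14.3%) were at 0 there, beside 27.2% of 13700 genes. In HFSC Msx2-KO replicate 2, Casp4, Casp9 and Endog were at 0. In EpdSC Msx2-KO replicate 1, Bcl2l14 and Htra2 were at 0, which is 5% of members beside 20.1% of 14986 genes. A count of 0 allows up to 3 counts, for counting error only.

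**Figure D2:**
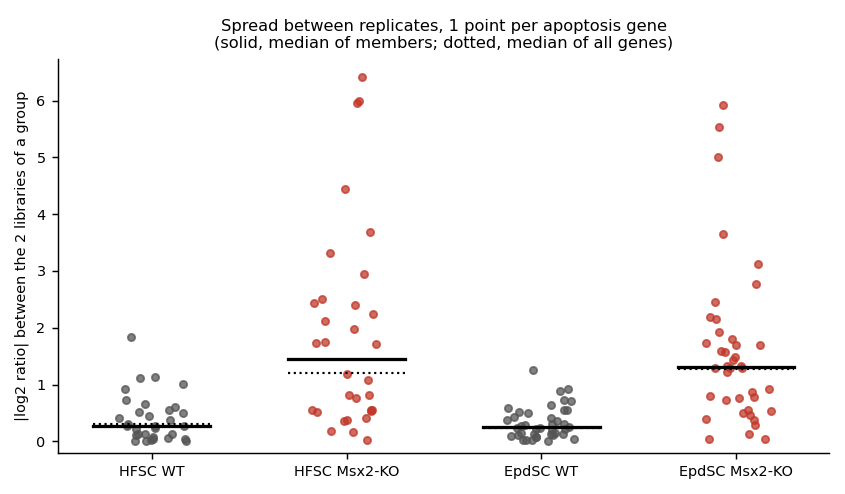
Absolute log2 ratio between the 2 libraries of each group, 1 point per member with a mean of at least 20, with the median of members (solid) and of all genes (dotted). The WT medians of 1.21-fold and 1.19-fold stand under the Msx2-KO medians of 2.73-fold and 2.48-fold.

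Mcl1 was the most abundant member in both cell types, and it lay on opposite sides of WT in HFSCs and EpdSCs. Mcl1 lies at chr3:95658788-95663176 on the plus strand (GRCm38, GENCODE M21) and encodes a short-lived anti-apoptotic Bcl2 protein. It had 1016 and 1542 normalized counts in HFSC WT and 431 and 553 in HFSC Msx2-KO. Both Msx2-KO libraries were below both WT libraries (log2 fold change -1.38, SE 0.32, unadjusted p = 0.012, edgeR adjusted p = 0.143). In EpdSCs Mcl1 had 3075 and 3635 units in WT against 6786 and 5186 in Msx2-KO, both above WT (0.83, SE 0.49, limma adjusted p = 0.282). Per kilobase of exon, Mcl1 ranked 1 of 40 members in WT of both cell types, at 374 normalized counts in HFSCs and 982 units in EpdSCs.

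Bcl2l1 encodes Bcl-xL, an anti-apoptotic protein of the mitochondrial membrane long studied in keratinocytes. In EpdSCs it had 624 and 637 units in WT against 61.1 and 184.7 in Msx2-KO, both below WT (log2 fold change -2.56, SE 0.73, limma adjusted p = 0.106). In HFSCs the groups overlapped, with 177 and 86.8 normalized counts in WT against 169 and 224 in Msx2-KO (0.57, SE 0.54, edgeR adjusted p = 0.738). Bcl2, the founding member of the family and a gene of the hair follicle, had 256 and 264 normalized counts in HFSC WT, and 416 and 77.7 in HFSC Msx2-KO, 1 library on either side. In EpdSCs Bcl2 had 299 and 347 units in WT against 31.8 and 285.5. Bcl2l2, which encodes Bcl-w, had 173 and 144 normalized counts against 87.7 and 348 in HFSCs and 404 and 445 units against 229 and 388 in EpdSCs. Of these 4 guardians, 3 lay below WT in both EpdSC Msx2-KO libraries, as 44.5% of all EpdSC genes did, and Mcl1 lay above.

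Ratios within a library do not depend on the scaling between libraries. The ratio of Mcl1 to Bcl2l1 values was 5.75 and 17.8 in HFSC WT and 2.55 and 2.47 in HFSC Msx2-KO. In EpdSCs it was 4.93 and 5.70 in WT against 111.0 and 28.1 in Msx2-KO. The ratio was thus lower than WT in both HFSC Msx2-KO libraries and higher in both EpdSC ones, and the pairs of genes set against each other here were chosen after their values were seen. Per length, Mcl1 made up 73.8% and 84.9% of the 4 anti-apoptotic transcripts in HFSC WT and 55.3% and 54.4% in HFSC Msx2-KO. In EpdSCs it made up 77.6% and 79.4% in WT against 96.7% and 90.5% in Msx2-KO.

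**Figure D3:**
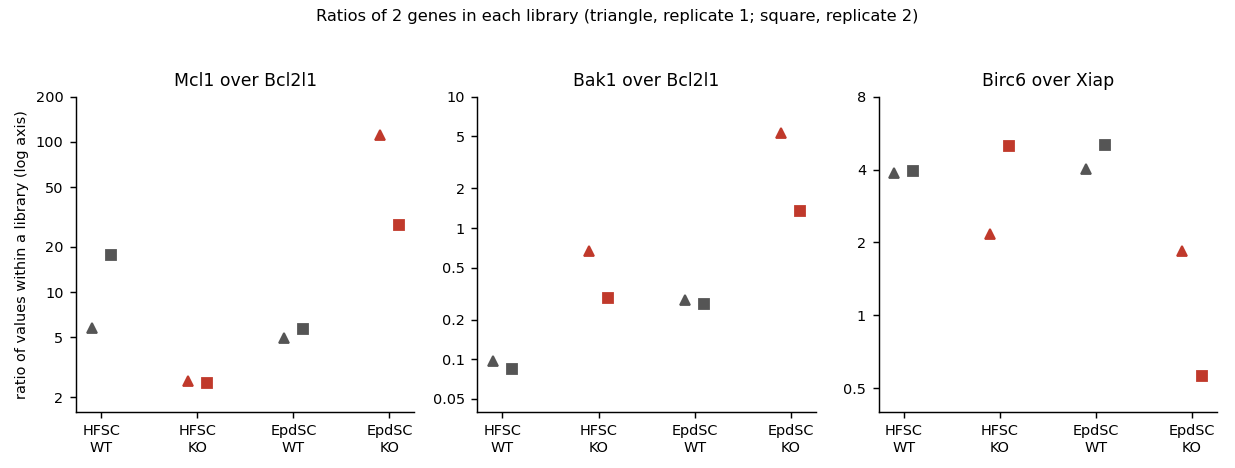
Ratio of the values of 2 genes within each of the 8 libraries on a log axis (triangles, replicate 1, and squares, replicate 2). Mcl1 over Bcl2l1 reaches 111.0 and 28.1 in EpdSC Msx2-KO against 4.93 and 5.70 in WT, and is lower than WT in HFSC Msx2-KO.

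Among the pore-forming proteins, Bak1 lay above WT and Bok below WT in both cell types. Bak1, an effector that pierces the outer mitochondrial membrane, had 17.3 and 7.33 normalized counts in HFSC WT and 113.4 and 66.0 in HFSC Msx2-KO (log2 fold change 2.82, SE 1.07, edgeR adjusted p = 0.294). In EpdSCs it had 177 and 167 units in WT against 323 and 249 in Msx2-KO (0.72, SE 0.48, limma adjusted p = 0.328). Bak1 was the only member whose Msx2-KO libraries both lay above both WT libraries in the 2 cell types. That is 2.78% of the 36 members tested in both, beside 5.67% of 13151 genes. In HFSCs this rests on few reads in WT, 21.3 and 3.72 deposited counts.

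Bok (chr1:93685660-93695764, plus strand) encodes a further effector of the Bax type, which is regulated by protein turnover. It had 124 and 166 normalized counts in HFSC WT and 17.3 and 11.7 in HFSC Msx2-KO, the lowest p of the members there (log2 fold change -3.30, SE 0.77, unadjusted p = 0.012, edgeR adjusted p = 0.143). DESeq2 called it in the same counts, at an adjusted p of 0.0325, as 1 of 37 members beside 690 of all 14422 genes. In EpdSCs Bok had 513 and 516 units in WT against 179.5 and 247 in Msx2-KO (-1.29, SE 0.49, limma adjusted p = 0.157). Per kilobase Bok ranked 2 of 40 in WT of both cell types, at 78.7 normalized counts and 279.7 units. Bax, the effector shared by most tissues, had 98.6 and 82.5 units in EpdSC WT and 562 and 148 in Msx2-KO, both above WT, while in HFSCs 28.5 and 17.8 normalized counts stood against 17.9 and 62.2. The ratio of Bak1 to Bcl2l1 was 0.098 and 0.0845 in HFSC WT and 0.672 and 0.295 in HFSC Msx2-KO, and 0.283 and 0.262 in EpdSC WT and 5.29 and 1.35 in EpdSC Msx2-KO.

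The 300 bases around the annotated starts of Bak1 and Bok, and of Birc6 and Endog described below, are shown as examples picked after their values were seen. In EpdSCs both Msx2-KO libraries stood apart from WT for each of them, as for 72.3% of all genes. The first 3 stood apart on the same side in HFSCs too, as did 21% of genes tested in both cell types. Birc2 and Birc3 did so as well and are not shown. The sequences are RefSeq promoter windows of GRCm38.p6, 250 bases before to 50 after a start, written 5′ to 3′ on the strand of the gene. Capitals mark a GC box, GGGCGG or its reverse complement CCGCCC, the site of Sp1 and related factors. They also would mark TAATTG or CAATTA, a core of Msx homeodomain sites, of which these windows hold 0.
Bak1 promoter, chr17:27028578-27028877, minus strand: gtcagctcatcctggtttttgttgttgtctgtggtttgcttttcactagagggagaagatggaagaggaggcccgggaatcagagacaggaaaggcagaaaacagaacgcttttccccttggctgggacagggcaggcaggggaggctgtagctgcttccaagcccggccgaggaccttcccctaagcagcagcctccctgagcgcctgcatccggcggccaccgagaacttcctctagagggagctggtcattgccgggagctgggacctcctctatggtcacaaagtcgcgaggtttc
Bok promoter, chr1:93685325-93685624, plus strand: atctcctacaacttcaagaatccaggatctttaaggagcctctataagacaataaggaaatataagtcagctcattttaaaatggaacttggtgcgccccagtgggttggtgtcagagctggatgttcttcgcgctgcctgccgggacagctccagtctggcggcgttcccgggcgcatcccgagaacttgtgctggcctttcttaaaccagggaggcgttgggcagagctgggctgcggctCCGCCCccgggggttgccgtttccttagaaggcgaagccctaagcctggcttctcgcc
Birc6 promoter, chr17:74528045-74528344, plus strand: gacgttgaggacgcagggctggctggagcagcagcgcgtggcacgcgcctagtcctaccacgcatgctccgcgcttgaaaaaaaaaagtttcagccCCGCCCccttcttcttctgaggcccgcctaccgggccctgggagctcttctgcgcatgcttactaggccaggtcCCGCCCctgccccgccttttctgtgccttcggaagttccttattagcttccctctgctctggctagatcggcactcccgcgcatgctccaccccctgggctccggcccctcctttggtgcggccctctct
Endog promoter, chr2:30171274-30171573, plus strand: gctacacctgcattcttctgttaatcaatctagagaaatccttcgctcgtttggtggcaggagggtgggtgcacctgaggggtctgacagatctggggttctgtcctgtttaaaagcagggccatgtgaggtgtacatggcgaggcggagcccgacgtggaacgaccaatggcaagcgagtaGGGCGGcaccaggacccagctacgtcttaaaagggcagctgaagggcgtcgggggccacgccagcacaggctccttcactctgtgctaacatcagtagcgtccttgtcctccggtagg

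The window of Bak1 holds no GC box, whereas those of Bok and Endog hold 1 and that of Birc6 holds 2. RefSeq windows were found for 37 of the 42 members. A GC box on either strand was present for 28 of these 37 (75.7%), beside 38.2% of 27025 genes with a window. TAATTG on either strand was present for 0 of 37, beside 9.22% of genes, and in 8% of 32851 windows. TATAAA on either strand was present for 3 members (8.11%), Bcl2l12, Xiap and Cflar, beside 15.7% of genes, and CCAAT for 13 (35.1%), beside 41.1%. GC content was high in the members, with a median of 60.33% over 51 windows beside 52.67% over all, and a median of 21 CpG sites beside 7. These are matches of letters within short windows, not binding sites.

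The BH3-only genes did not share a direction. Bad, which binds Bcl2 and Bcl2l1 when unphosphorylated, had 358 and 332 units in EpdSC WT and 36.9 and 94.2 in EpdSC Msx2-KO (log2 fold change -2.52, SE 0.67, limma adjusted p = 0.095). In HFSCs both Msx2-KO libraries lay above WT, at 94.4 and 106 normalized counts against 65.2 and 50.2 (0.80, SE 0.68, edgeR adjusted p = 0.698). Bcl2l11, which encodes Bim, had 62.8 and 84.4 units in EpdSC WT and 861 and 156 in Msx2-KO (2.32, SE 1.01, limma adjusted p = 0.191). In HFSCs Bim transcripts ran the other way, at 78.2 and 55.2 normalized counts in WT against 9.97 and 35.0 in Msx2-KO (-1.57, SE 1.17, edgeR adjusted p = 0.643).

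Bid links the death receptors to mitochondria after caspase 8 cuts it, and it is one of the genes that the study displayed for EpdSCs, a choice made on these libraries and so no independent evidence. It had 33.1 and 21.8 units in EpdSC WT and 73.1 and 339 in EpdSC Msx2-KO, both above WT (log2 fold change 2.51, SE 0.94, limma adjusted p = 0.156). In HFSCs the groups overlapped, with 18.7 and 18.3 normalized counts in WT against 0 and 33.5 in Msx2-KO (-0.13, SE 2.33, edgeR adjusted p = 0.991). Bmf, which senses loss of attachment, had 59.5 and 49.3 normalized counts in HFSC WT against 21.9 and 1.29, and overlapped in EpdSCs. Pmaip1 and Bbc3, which encode the p53 targets Noxa and Puma, overlapped between the groups in both cell types. In EpdSCs Pmaip1 had 229 and 138 units against 302 and 205, and Bbc3 had 100.7 and 193 against 448 and 165. In HFSCs Pmaip1 had 7.33 and 15.8 normalized counts against 5.32 and 41.4. Hrk was read in HFSCs alone, at 7.33 and 1.97 normalized counts in WT against 0 and 36.3 in Msx2-KO.

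Bcl2l13, a Bcl2 relative of the outer mitochondrial membrane also known as a receptor for mitophagy, was the member among the apoptotic markers displayed by the study for HFSCs. That display was again chosen on these data. Beside transcripts, the study reported more cleaved caspase-3 staining in Msx2-KO HFSCs. It also reported more TUNEL-positive cells, a sign of late apoptosis, in matrix, bulge and epidermis. Bcl2l13 had 178 and 179 normalized counts in HFSC WT and 328 and 575 in HFSC Msx2-KO (log2 fold change 1.34, SE 0.39, unadjusted p = 0.024, edgeR adjusted p = 0.176). In EpdSCs WT values of 1500 and 1454 units stood between the Msx2-KO values of 65.7 and 2137 (-1.97, SE 1.87, limma adjusted p = 0.471). Bcl2l12 had 26.1 and 17.9 normalized counts in HFSC WT and 215 and 38.9 in Msx2-KO (2.52, SE 1.15, edgeR adjusted p = 0.386), and in EpdSCs 114 and 104 units against 136 and 93.7. Bcl2l14 had 131 and 111 units in EpdSC WT and 0 and 45.2 in EpdSC Msx2-KO (-4.16, SE 2.06, limma adjusted p = 0.223).

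**Figure D4:**
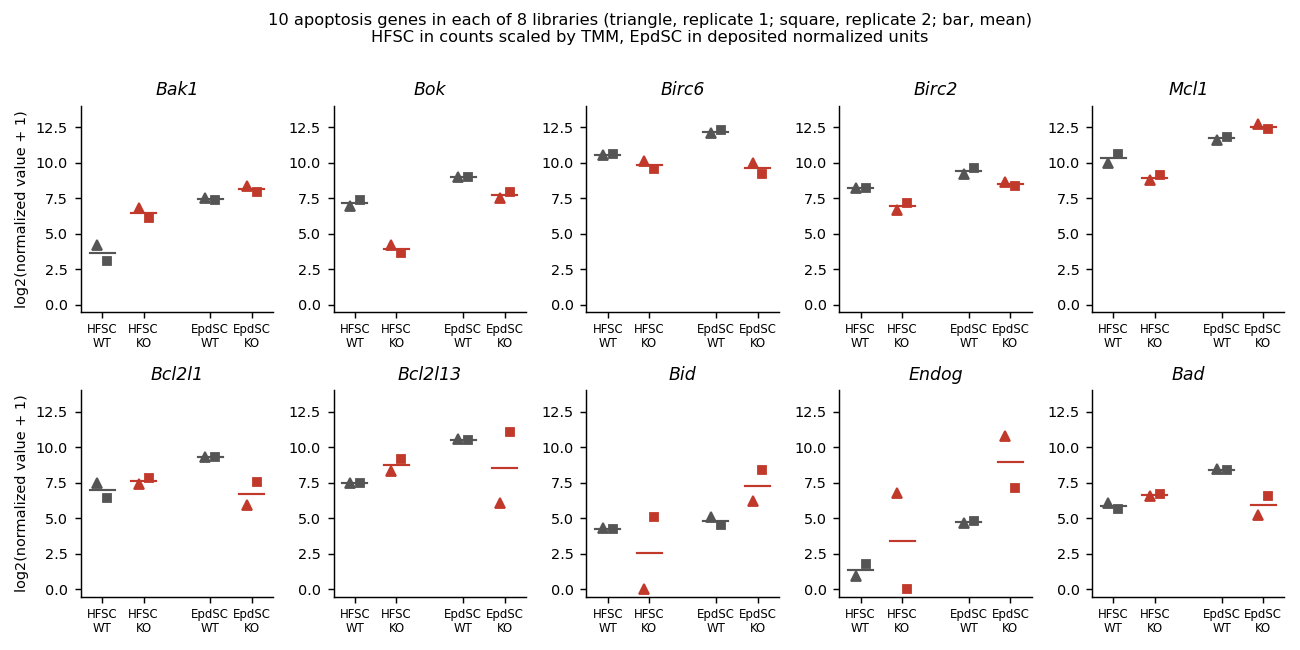
Level of 10 members in each of the 8 libraries on a log2 scale (triangles, replicate 1, squares, replicate 2, bars, mean of the 2), with HFSCs in counts scaled by TMM and EpdSCs in deposited units. Bak1 lies above WT and Bok, Birc6 and Birc2 below WT in both cell types, while Mcl1 and Bad change sides between them.

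The 4 IAP genes among the members had negative log2 fold changes in both cell types under each scaling tried, as 54.6% of all genes did in HFSCs and 59.7% in EpdSCs in the tests reported here. Birc5, an IAP relative outside the members, was positive in both, at 4.28 and 1.18. Birc6 (chr17:74528295-74703356, plus strand), a very large ubiquitin ligase that binds caspases, had 4237 and 4915 units in EpdSC WT and 1017 and 592 in EpdSC Msx2-KO, with the lowest p of the EpdSC members (log2 fold change -2.55, SE 0.54, unadjusted p = 0.010, limma adjusted p = 0.069). Beside the fits that left out a library, it was called under 3 alternative settings, at limma adjusted p of 0.0387 to 0.0462. Under the setting with a pseudocount of 10, log2(value + 10), 1973 of all 16231 genes were called as well. In HFSCs Birc6 had 1477 and 1546 normalized counts in WT against 1116 and 758 in Msx2-KO (-0.69, SE 0.28, edgeR adjusted p = 0.337). Birc2, which encodes cIAP1, had 294 and 297 normalized counts in HFSC WT and 100.3 and 144 in Msx2-KO (-1.27, SE 0.37, unadjusted p = 0.026, edgeR adjusted p = 0.183), and 595 and 776 units against 402 and 328 in EpdSCs (-0.90, SE 0.49, limma adjusted p = 0.253).

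Birc3, the neighbour of Birc2 on chromosome 9 and its closest relative, also lay below WT in both cell types. It had 77.7 and 63.9 normalized counts in HFSC WT against 41.9 and 62.2, a gap between the groups of less than 2 normalized counts. In EpdSCs it had 523 and 426 units against 39.5 and 274. Xiap, the best known direct inhibitor of caspases, overlapped in both, with 383 and 390 normalized counts against 515 and 152 in HFSCs and 1058 and 971 units against 554 and 1051 in EpdSCs. Per length, Birc6 made up 32.2% and 34.8% of the 4 IAP transcripts in EpdSC WT and 20.4% and 8.84% in EpdSC Msx2-KO, whereas in HFSCs its share was 32.3% and 33.6% against 33.8% and 33.0%. The ratio of Birc6 to Xiap was 4.003 and 5.06 in EpdSC WT and 1.84 and 0.563 in EpdSC Msx2-KO.

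The 3 apoptosome genes were negative in HFSCs and positive in EpdSCs, where the sign of Apaf1 turned when values were rescaled by library totals taken without mitochondrial and rRNA genes, though not by totals over all genes. Casp9, the initiator caspase that Apaf1 activates, had 59.5 and 35.5 normalized counts in HFSC WT and 4.65 and 0 in HFSC Msx2-KO (log2 fold change -4.21, SE 1.99, edgeR adjusted p = 0.410). In EpdSCs it had 217 and 231 units against 548 and 233 (0.67, SE 0.64, limma adjusted p = 0.471), so that 1 Msx2-KO library barely cleared WT. Apaf1, the scaffold, had 92.1 and 136 units in EpdSC WT against 155 and 159. The groups of Apaf1 overlapped in HFSCs. Cycs, which encodes cytochrome c, had 338 and 310.3 units against 861 and 351, and in HFSCs 21.1 and 78.0 normalized counts against 0 and 62.4.

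Endog (chr2:30171493-30174069, plus strand), a mitochondrial endonuclease that can enter the nucleus during cell death, had the largest positive log2 fold change of any member. It had 24.1 and 26.8 units in EpdSC WT and 1784 and 142 in EpdSC Msx2-KO (4.26, SE 1.40, unadjusted p = 0.041, limma adjusted p = 0.128), and it too was displayed by the study for EpdSCs. In HFSCs it was not tested, with 1.17 and 1.26 deposited counts in WT against 162 and 0 in Msx2-KO. A high Endog value in 1 Msx2-KO library of each cell type was thus paired with 142 units or 0 counts in the other. Htra2, a protease that degrades IAPs once released, had 145 and 103 units in EpdSC WT and 0 and 59.7 in EpdSC Msx2-KO (-3.98, SE 2.20, limma adjusted p = 0.260), and overlapped in HFSCs. Diablo, which relieves caspases from IAPs, had 386 and 380.1 units against 108 and 329 in EpdSCs and 112 and 111 normalized counts against 136 and 135 in HFSCs. Aifm1, a flavoprotein of the inner membrane, had 85.5 and 78.9 normalized counts in HFSC WT against 237 and 111 and overlapped in EpdSCs.

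The 7 members of the death receptor pathway, which are 2 receptors with their adaptors and regulators, had negative log2 fold changes in HFSCs, between -2.48 and -0.23, as 54.6% of all genes did, and none had an unadjusted p under 0.05. Of 6 further death ligands, receptors and adaptors tested in HFSCs, 2 were positive, the receptors Tnfrsf21 (0.77) and Tnfrsf25 (0.20). In EpdSCs 4 of the 7 members were positive and 3 negative, which became 3 and 4 with library totals, and 2 and 5 with totals taken without mitochondrial and rRNA genes. Tnfrsf10b, the mouse receptor for the death ligand Trail, had 61.1 and 52.6 normalized counts in HFSC WT and 0 and 20.7 in HFSC Msx2-KO (-2.48, SE 2.31, edgeR adjusted p = 0.736), and overlapped in EpdSCs. Tradd, an adaptor of the Tnf receptor, had 31.8 and 39.4 normalized counts against 12.0 and 10.4 in HFSCs and 238 and 192 units against 1163 and 350.5 in EpdSCs, opposite sides of WT. Fas, the receptor of Fas ligand, had 73.7 and 177 units in EpdSC WT against 313 and 344, and in HFSCs 23.6 and 21.7 normalized counts against 0 and 22.0.

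Cflar, which blocks caspase 8 at the receptor, had 529 and 712 units in EpdSC WT against 467 and 330.2, while Fadd, the adaptor that recruits caspase 8, had 143 and 131 against 109.5 and 113. Both genes overlapped between the groups in HFSCs. Casp8 and Ripk1, a kinase that can turn receptor signals toward necroptosis, overlapped in both cell types. In HFSCs Casp8 had 54.6 and 74.9 normalized counts against 11.3 and 93.2, and Ripk1 had 206 and 199 against 205 and 140. In EpdSCs Casp8 had 511 and 413 units against 1227 and 352, and Ripk1 had 1066 and 1127 against 496 and 1397. Among the other caspases, Casp2, an initiator activated by the PIDDosome, had 513 and 505 units in EpdSC WT against 3005 and 921, and 172 and 187 normalized counts in HFSC WT against 146 and 63.5. The inflammatory caspases Casp1 and Casp4 and the effector Casp6 overlapped wherever they were read. In EpdSCs Casp1 had 165 and 142 units against 90.4 and 223, Casp4 had 161 and 87.3 against 100.6 and 184, and Casp6 had 149 and 124 against 126 and 75.5. Casp4 had 2 deposited counts over the 4 HFSC libraries, and Casp6 had 43.2 and 39.4 normalized counts against 35.9 and 46.6.

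Dffa and Dffb, the chaperone and the nuclease that cuts DNA in apoptotic nuclei, had Msx2-KO values on both sides of WT in HFSCs. Dffa had 56.6 and 59.98 normalized counts in HFSC WT and 3.99 and 307 in HFSC Msx2-KO (log2 fold change 1.42, SE 1.82, edgeR adjusted p = 0.836), 1 library on either side. Dffb had 49.7 and 25.6 against 0 and 84.2. In EpdSCs both overlapped, with 1118 and 763 units against 259.8 and 1158 for Dffa and 99.6 and 63.5 against 47.1 and 82.2 for Dffb.

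**Figure D5:**
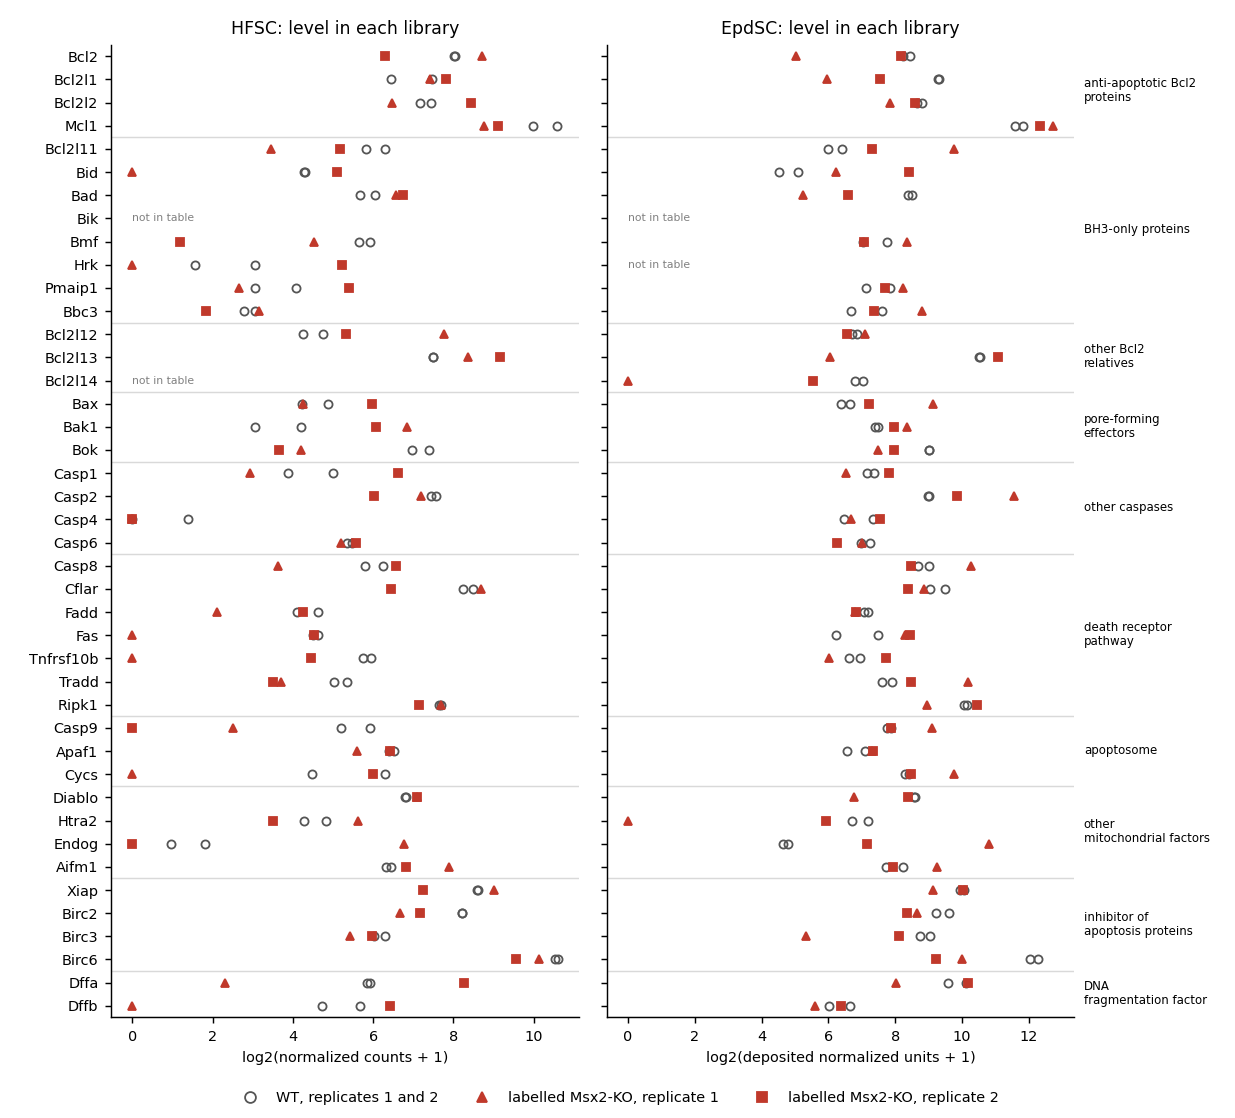
Level of each member in each library as log2(value + 1), in counts scaled by TMM for HFSCs and in deposited units for EpdSCs, ordered by role. The WT circles lie close together, and the Msx2-KO symbols stand on both sides of them, as for Dffa at 3.99 and 307 normalized counts in HFSCs.

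Reads of several members could not be separated from those of a neighbour. Of the members, 16 share exon bases with another gene, 14 of them with a gene on the opposite strand, and 20 members held fractional counts in HFSCs. Among 12 opposite-strand pairs read in HFSCs, 21 library values were fractional for both genes, and in 14 of these the pair summed to a whole number within 0.02. The libraries were stranded, yet in these pairs reads were divided between genes of opposite strands, and the use of strand in the counting step is not given in the sources used here.

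Bcl2l13 and Bid are such a pair, sharing 628 exon bases within chr6:120891930-120892842. In HFSC WT replicate 2 Bid had 9.26 counts and Bcl2l13 90.7, summing to 100, and in Msx2-KO replicate 2 they had 25.9 and 444, summing to 470.0. The sum of the pair was 241 and 100 counts in HFSC WT against 493 and 470 in HFSC Msx2-KO. In EpdSCs it was 1533 and 1476 units in WT against 139 and 2476 in Msx2-KO, so the summed values overlapped, whereas those of Bid alone did not. Bak1 shares 614 exon bases with Ggnbp1, which had 49.8 and 10.5 counts in HFSC WT and 169 and 45 in HFSC Msx2-KO, or 40.5 and 20.7 against 112.5 and 58.3 once scaled. The sum over Bak1 and Ggnbp1 in HFSC Msx2-KO replicate 1 was 340.0, divided into 171 and 169. In EpdSCs Ggnbp1 had 24.3 and 55.2 units against 1.27 and 3.23, so that Bak1 and its neighbour lay on the same side of WT in scaled HFSC counts, where deposited counts of Ggnbp1 overlapped, and on opposite sides in EpdSCs.

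Endog shares 379 exon bases with Spout1. In EpdSC WT Spout1 had 256 and 306 units beside 24.1 and 26.8 for Endog, and in EpdSC Msx2-KO it had 17.9 and 65.0 beside 1784 and 142. The sum of the pair was 281 and 333 units in WT against 1802 and 207 in Msx2-KO, so the summed values of the groups overlapped. Bad shares 524 exon bases with Gpr137, and their sum in EpdSCs was 551 and 559 units in WT against 36.9 and 140 in Msx2-KO, both below WT as for Bad alone. Bcl2l12 shares exon bases with Irf3 and Gm15545, and Htra2 with Aup1 and Loxl3.

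The 2 cell types were compared with separate WT libraries. Of the 36 members tested in both, 15 had the same sign (41.7%, beside 51.7% of 13151 genes tested in both) and 21 opposite signs (58.3%, beside 48.3%). Across these 36 genes, which are not independent replicates, Pearson's r between the log2 fold changes was -0.17 and Spearman's rho -0.25. The groups failed to overlap, on the same side of WT, for Bak1 above and for Bok, Birc2, Birc3 and Birc6 below, which is 13.9% of members beside 21% of genes. They failed to overlap on opposite sides (19.4%, beside 16.5%) for Bcl2l11, Mcl1, Casp2, Casp9 and Tradd and for Bad and Diablo. Of these 7, Bad and Diablo lay above WT in HFSCs and below WT in EpdSCs, and the others the reverse.

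Calls depended on which Msx2-KO library was kept. Without Msx2-KO replicate 1, 14 HFSC members were called, beside 36.6% of all genes, and without replicate 2, 17 were called, beside 59.1%. Both sets held Bok, Birc2 and Casp9 as lower and Bak1 as higher, and Dffa with opposite signs, 2.39 and -3.82. The 4 with 1 direction are 10.8% of members, beside 17.9% of all genes. In EpdSCs 6 members were called without Msx2-KO replicate 1, beside 37.6% of genes, and 20 without replicate 2, beside 63.9%. The sets shared Bad, Bcl2l1, Bcl2l14 and Birc6 as lower and Endog as higher, which is 12.5% of members beside 31.1% of genes. In these fits the single Msx2-KO library is assumed to vary like the WT libraries, whose spread was far smaller.

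Other genes of cell death were read from a list of 66. In HFSCs 42 were tested, of which 3 had an unadjusted p under 0.05 as higher and 4 as lower, together 16.7% beside 18.1% of all genes, and none was called. In EpdSCs 46 were tested, with 10 higher and 7 lower at that level, together 37% beside 35.3%. The only call was Nlrp1b, an inflammasome sensor that differs between inbred mouse strains, with 129 and 99.6 units in EpdSC WT and 0 in both Msx2-KO libraries (limma adjusted p = 0.027). In HFSCs Nlrp1b had 25.5 and 20.6 normalized counts against 0 and 1.29. Naip6, of a gene cluster that also varies between strains, had 10.8 and 13.8 normalized counts in HFSC WT and 0 in both Msx2-KO libraries. It was not called (edgeR adjusted p = 0.143). Among HFSC genes with at least 5 counts in both WT libraries, 27.2% and 17.2% were at 0 in Msx2-KO replicates 1 and 2. The part of strain in the values of Nlrp1b and Naip6 was not tested.

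That list includes p53 and its death targets. In EpdSCs 13 were tested, 9 positive and 4 negative, and 5 had an unadjusted p under 0.05, all higher (38.5%, beside 12.2% of all genes higher at that level). Trp53 itself, which encodes p53, had 741 and 816 units in EpdSC WT and 3667 and 3435 in EpdSC Msx2-KO (log2 fold change 2.19, SE 0.46, limma adjusted p = 0.068). Perp, a p53 target that is also a desmosome protein of the epidermis, had 40224 and 34019 units against 269508 and 166709. The p53 targets Cdkn1a and Phlda3 lay below WT, Cdkn1a at 2022 and 1449 units against 579 and 819.6 and Phlda3 at 1052 and 1077 against 22.9 and 410.5. The 7 markers of basal epidermis, 6 of them with a positive fold change, also summed higher in EpdSC Msx2-KO, to 1184920 and 653995 units against 256638 and 303248 in WT, and their part in these values was not tested. In HFSCs 12 were tested, 3 positive and 9 negative, and Trp53 had 78.6 and 108 normalized counts against 17.9 and 62.2. Birc5, the IAP relative survivin that is made by dividing cells, had 3.26 and 3.94 normalized counts in HFSC WT and 81.1 and 62.2 in HFSC Msx2-KO. In HFSCs the 6 cycling markers, Birc5 among them, summed to 271 and 312 in WT against 3161 and 2405 in Msx2-KO. Mki67 made up most of these sums, and Cdk1 and Aurkb were at 0 in HFSC Msx2-KO replicate 1. In EpdSCs 4 cycling markers had a positive log2 fold change and 2 a negative one.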

How the data were processed

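Total RNA of sorted cells was sequenced in 8 libraries, and groups came from the sample labels. HFSC values were deposited by the authors as estimated counts of each gene with no scaling, made with STAR 2.7.3a in Partek Flow on GRCm38/mm10. For EpdSCs the authors deposited a normalized signal, estimated counts divided by 1 factor per library, a single count being worth 1.08, 0.949, 1.27 and 0.674 units. Deposited tables with the authors' own fold changes and p-values were not used. The number of value columns left unmapped was 0.

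HFSC counts were rounded, scaled by TMM to 6101083 counts per library and tested with edgeR 4.0.16 (quasi-likelihood, filterByExpr). For EpdSCs, limma 3.58.1 was run on log2(value + 1), which understates changes of low genes. P-values were adjusted over all genes tested. DESeq2 1.42.0 was an alternative. Both tests were also run on simulated data with 200 changed genes. The simulated spread was equal in both groups and smaller than that estimated for the HFSC counts. That run therefore does not show how the tests perform on these data, where Msx2-KO libraries spread far more than WT ones. Members were named with full statistics where the unadjusted p was under 0.05, where the study displayed them for that cell type, or where they were among the 3 largest changes in a direction with a mean of at least 20. Members and lists were chosen with earlier results of these data known. The labels do not say whether replicates were separate mice, so p-values measure only the spread between these samples. Promoter windows came from RefSeq on GRCm38.p6. R 4.3.3, Python 3.11.15 and matplotlib 3.10.9 were used.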

Additional observations from a re-analysis of the deposited data

Results flagged for a closer look

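For 7 of the 36 members tested in both cell types (19.4%, beside 16.5% of 13151 genes) both Msx2-KO libraries lay on one side of WT in HFSCs and on the other side in EpdSCs, a share near that of all genes. The difference between the cell types was not tested, since the tables are in different units. Bcl2l11 had a log2 fold change of -1.574 in HFSCs and 2.315 in EpdSCs. Mcl1 had -1.378 and 0.8271, Casp2 had -0.7761 and 1.707, Casp9 had -4.211 and 0.6724, and Tradd had -1.66 and 1.575. Bad had 0.8049 in HFSCs and -2.524 in EpdSCs, and Diablo had 0.2868 and -1.015. None of these 14 log2 fold changes passed the adjusted threshold.

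The ratio of Mcl1 to Bcl2l1 within a library behaved in the same way. It was 5.747 and 17.77 in HFSC WT, 2.551 and 2.468 in HFSC Msx2-KO, 4.929 and 5.704 in EpdSC WT, and 111.0 and 28.08 in EpdSC Msx2-KO.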

How the results depend on the processing

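In HFSCs, 0 genes were called by edgeR, against 690 by DESeq2, 1407 by limma-trend, 51 with library totals, 2 with at least 10 counts in every library, and 231 with the replicate block. Of the members, 1 was called by DESeq2, Bok. The HFSC member median was -1.06 with library totals, where the median of all genes was -1.002. In EpdSCs 1 member, Birc6, was called with a pseudocount of 10, with totals taken without mitochondrially encoded and rRNA genes, and with a trended prior. With a pseudocount of 10, 1973 of 16231 genes were called, and 7 of 40 members had an unadjusted p under 0.05, beside 40.3% of all genes. The EpdSC member median was -0.29 with library totals and -0.56 with totals taken without those genes, which changes both the scaling and the genes, where the medians of all genes were -0.88 and -1.14. Dffa turned negative in HFSCs with the replicate block (-0.59) and with limma-trend (-0.38). The labels do not say whether replicate numbers pair the samples. Deviations of same-numbered libraries correlated at -0.056 in HFSCs and -0.023 in EpdSCs. These values cannot decide it, since the Msx2-KO libraries differed from each other far more than the WT libraries did.

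Leaving out 1 library at a time gave 132 to 9272 HFSC genes called, 0 to 17 members called, 0 to 23 members at an unadjusted p under 0.05 and member medians of -0.87 to -0.072. Dffa ranged from -3.82 to 2.39. In EpdSCs it gave 0 to 10376 genes, 0 to 20 members called, 0 to 24 at an unadjusted p under 0.05 and medians of -0.28 to 0.055. In each of these fits, the share of members at an unadjusted p under 0.05 did not exceed that of all genes. All member calls in these fits came from leaving out an Msx2-KO library. The cause of these shifts was not tested. HFSC libraries held as few as 3132974 counts, and Bbc3, Casp4 and Endog were too low there to be tested.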

Other observations

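Across the members, libraries of a group resembled each other to very different degrees. Pearson's r of log2(value + 1) across members, which are not independent replicates, was 0.947 between the HFSC WT libraries and 0.964 between the EpdSC WT libraries. Between the libraries labelled Msx2-KO it was 0.493 in HFSCs and 0.559 in EpdSCs, beside 0.578 and 0.844 across all genes. All genes span a wider range of levels than the members, which by itself can raise r, so the 2 are not like for like. The median ratio between Msx2-KO replicates was 2.48-fold for members and 2.43-fold for all genes in EpdSCs, and 2.73-fold and 2.30-fold in HFSCs. EpdSC Msx2-KO replicate 1 had r of 0.244 and 0.309 with the WT libraries across members, against 0.613 and 0.624 across all genes, while replicate 2 had 0.709 and 0.722 across members and 0.732 and 0.742 across all genes.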
